A study of Mus musculus with 12 samples.

Results

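The genes described here are 37 mouse genes of fatty acid uptake, activation and beta-oxidation, taken by name from a table of RNA levels in hearts. All 37 had a row among the 56748 genes of the table, and 36 reached the level needed for testing, so 36 of the 13537 genes tested are members of the set. The member left untested was Acsl6. The hearts fell into 4 groups of 3 libraries each: Csrp3 knockout (KO) at postnatal day 21 (P21), wild type (WT) at P21, KO at P1 and WT at P1. Csrp3 encodes muscle LIM protein of the heart and skeletal muscle sarcomere. All libraries came from total RNA of heart. Strain, sex, litter and the making of the knockout allele are not in the labels. Nor do the labels state whether each library is a different animal, so p-values measure the spread between these samples.

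Long-chain fatty acids are freed from lipoproteins at the capillary wall, cross the endothelium and the muscle cell membrane with the help of binding proteins and transporters, and are joined to coenzyme A. The carnitine shuttle, which malonyl-CoA inhibits at its entry step, carries the acyl groups into mitochondria, where repeated cycles of dehydrogenation, hydration, dehydrogenation and thiolysis shorten them and pass electrons to the respiratory chain. The newborn heart is known for its reliance on glucose and lactate, and the heart after birth for its growing reliance on fatty acids.

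Levels are FPKM, fragments per kilobase of gene, scaled for depth, which can be compared between genes. Differences are between means of log2(FPKM + 0.5), where the added 0.5 makes changes of weakly expressed genes look smaller, and a gene was called when its adjusted p from limma (Benjamini-Hochberg over the 13537 genes) was below 0.05. Libraries held 9.67 to 15.9 M (megareads) in genes. WT P21 libraries 1 and 2 held the fewest, 10.2 and 9.67 M, and had the fewest genes above 0 FPKM, 17344 and 15811. The other libraries had 18348 to 22353 genes above 0. Csrp3 itself had 671, 1112 and 926 FPKM in KO P21 libraries 1, 2 and 3, against 1068, 1397 and 572 FPKM in WT P21 libraries. At P1 it had 168, 94.3 and 147 FPKM in KO libraries, against 183, 179 and 238 FPKM in WT libraries. Csrp3 RNA was thus present in every library labelled KO, and a deleted part of the gene cannot be seen in a value per gene. Pearson correlations of log2 values within the WT P21 group were 0.909 to 0.926, against 0.935 to 0.982 in the other groups. That range covers every pair of WT P21 libraries and so does not single any of them out. WT P21 libraries 1 and 2 were set apart because their library names alone end in R, a letter with no stated meaning, and because several members differed most there. For each member called in WT hearts, the value without these libraries is given beside the call. Without them WT P21 is a single library, assumed to vary like the others.

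At P21 against P1, members were called in both directions. Lpl, Acaa1a, Acadm, Echs1 and Acot13 rose in both genotypes, whereas Acsl3, Cpt1a, Acot1 and Acot2 fell in both. Without WT P21 libraries 1 and 2 the WT call of Acadm was lost. Rescaling the values to TPM turned the WT difference of Acaa1a, Acadm and Echs1 negative, as set out below. No member was called between KO and WT at either age. The most abundant member in all 4 groups was Fabp3, the heart-type fatty acid binding protein, with 43.9% to 62.3% of the summed FPKM of the set. The second in all 4 groups was Acaa2, the mitochondrial thiolase. Over the 12 libraries, 14 members averaged at least 100 FPKM, 30 at least 10 FPKM and 7 less than 10 FPKM.

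**Figure D1:**
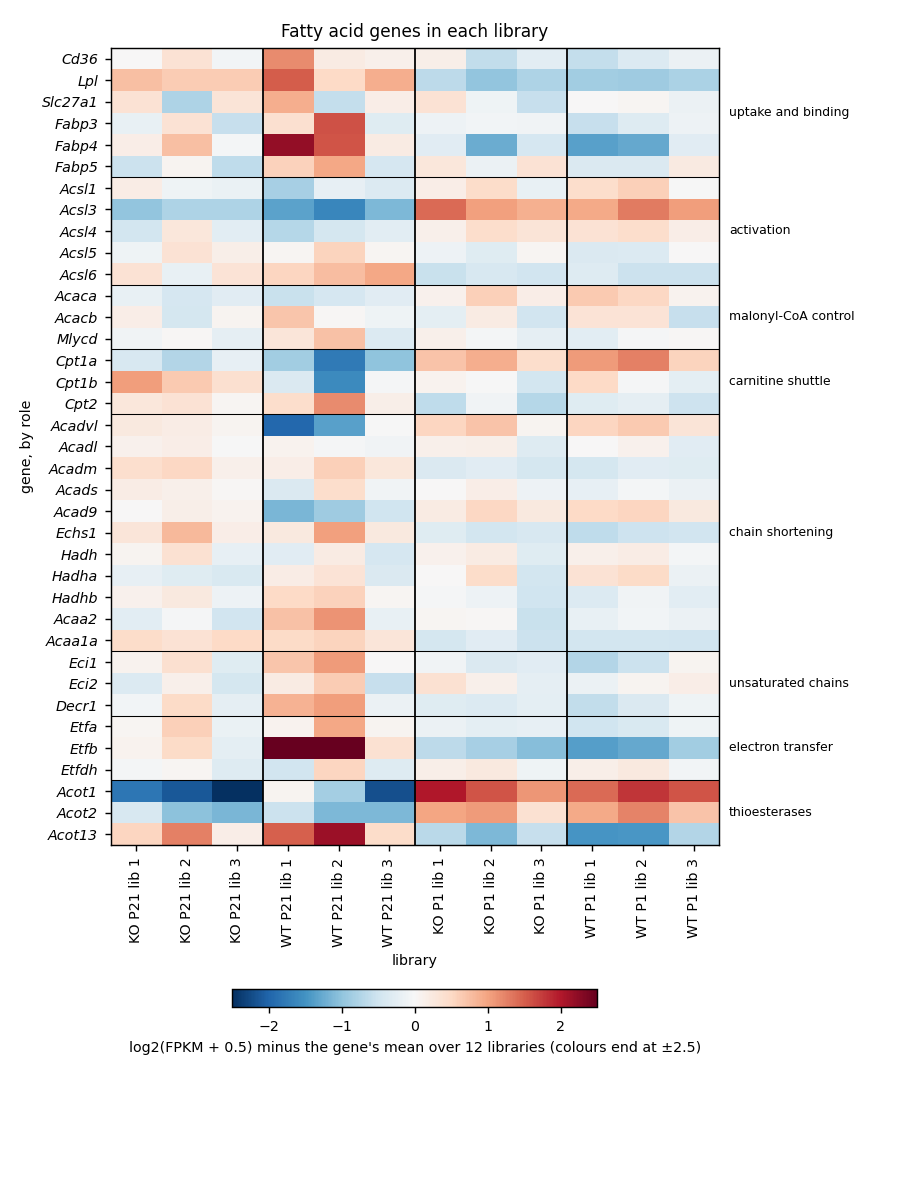
Each row is a gene, grouped by role, and each column a library; colour gives log2(FPKM + 0.5) minus that gene's mean over the 12 libraries. Acsl3, Cpt1a, Acot1 and Acot2 are red at P1 and blue or pale at P21, Lpl and Acot13 are the other way round, and WT P21 libraries 1 and 2 hold the darkest cells of Fabp4, Acadvl and Etfb.

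Sequence upstream of these genes was read from RefSeq promoters (GRCm38.p6, 250 bases before to 50 bases after the gene start), which were found for 29 of the 37 members. They were searched on both strands for AGGTCA, the hexamer of nuclear receptors such as the PPAR and ERR proteins that are known to bind near fatty acid oxidation genes, for the longer ERR site TNAAGGTCA and for the DR1 repeat, a tandem pair of the hexamer with a base between. The hexamer also lies inside both longer motifs. It stood in the promoters of 7 of the 29 members (24.1%: Acacb, Acadm, Acadvl, Acsl6, Cd36, Cpt1a and Echs1) and of 18.1% of all 27025 genes with a promoter there. The ERR site was found for 1 of 29 members (3.45%, Acsl6) against 1.43% of all genes, and the DR1 repeat for 0 of 29 (0%) against 0.0481%. Of the 9 members called for age in both genotypes, 7 had a promoter and 3 of these held the hexamer. These 3 promoters are shown because one belongs to a gene that fell and the others to genes that rose. They are printed from 5′ to 3′ on the gene's strand, with the site in capitals, as AGGTCA or as its reverse complement.
Cpt1a, chr19:3323051-3323350, plus strand: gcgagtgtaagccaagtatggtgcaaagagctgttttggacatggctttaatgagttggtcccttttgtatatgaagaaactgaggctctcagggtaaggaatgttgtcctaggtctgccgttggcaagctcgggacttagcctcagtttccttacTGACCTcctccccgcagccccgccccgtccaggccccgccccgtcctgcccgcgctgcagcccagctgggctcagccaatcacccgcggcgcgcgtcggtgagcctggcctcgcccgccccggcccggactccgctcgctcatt
Acadm, chr3:153944594-153944893, minus strand: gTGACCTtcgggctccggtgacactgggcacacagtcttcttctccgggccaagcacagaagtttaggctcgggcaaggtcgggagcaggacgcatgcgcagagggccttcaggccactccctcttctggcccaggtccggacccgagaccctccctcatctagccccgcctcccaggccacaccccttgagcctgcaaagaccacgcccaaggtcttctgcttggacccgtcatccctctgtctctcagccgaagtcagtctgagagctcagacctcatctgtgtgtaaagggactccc
Echs1, chr7:140116372-140116671, minus strand: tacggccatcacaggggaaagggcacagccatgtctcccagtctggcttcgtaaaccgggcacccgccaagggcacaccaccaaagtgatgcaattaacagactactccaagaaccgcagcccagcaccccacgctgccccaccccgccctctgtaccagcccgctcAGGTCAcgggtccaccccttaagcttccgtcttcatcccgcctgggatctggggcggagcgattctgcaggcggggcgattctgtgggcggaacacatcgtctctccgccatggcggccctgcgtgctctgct
The site began 94 bases before the start of Cpt1a, 249 bases before that of Acadm and 83 bases before that of Echs1. A match is a run of letters, not evidence of binding.

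The first question of the design is how these genes differ between P21 and P1 in each genotype. In KO hearts 5 members were called higher and 4 lower of 36, where 11.8% of all genes tested were called higher and 13.2% lower (25.0% in either direction). In WT hearts 11 members were called higher and 9 lower, where 21.5% of all genes were called higher and 23.3% lower (44.9% in either direction). The 9 lower include Acaca, which reached the level for testing through P1 libraries alone, as described below. The median log2 difference of the members was 0.09 in KO hearts, against -0.02 over all genes, and 0.25 in WT hearts, against -0.04 over all genes. The P21 and P1 libraries did not overlap for 10 members higher and 6 lower in KO hearts (background 22.6% and 24.8%), and for 12 higher and 9 lower in WT hearts (background 24.4% and 27.5%). All 9 members called in KO hearts were also called in WT hearts with the same sign, which is 100% of the KO calls and 45% of the WT calls. Over all genes, those called in both genotypes made up 86.4% of the KO calls and 48.2% of the WT calls. Calling a gene in WT and not in KO does not show that the genotypes differ: the difference between the age effects was called for 0 of 36 members and 0 of 13537 genes (0%).

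The scale of the values matters for these directions. The authors' scaling held the median of all genes near 0 between the ages, but rescaling to TPM moved it to -0.61 in KO and -1.01 in WT hearts, and scaling by reads in genes moved it to -0.39 and -0.58. With TPM, 1 member was called higher and 17 lower in KO hearts, and 3 higher and 23 lower in WT hearts. Of all 13537 genes, 635 were then called higher and 5112 lower in KO hearts, and 765 higher and 8423 lower in WT hearts. With reads in genes, the split was 2 higher and 11 lower in KO hearts, and 4 higher and 16 lower in WT hearts. Over all genes it was 902 higher and 3809 lower in KO hearts, and 1417 higher and 6174 lower in WT hearts. Most calls of all genes were thus also lower on these scales. Relative to the median of all genes, each of the 9 KO calls and 20 WT calls kept its side under both scalings. The directions below are therefore relative to the other genes of the heart. Whether the total amount of these RNAs per cell changed was not tested, and in heart tissue fewer cells of a type and less RNA per cell cannot be told apart.

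**Figure D2:**
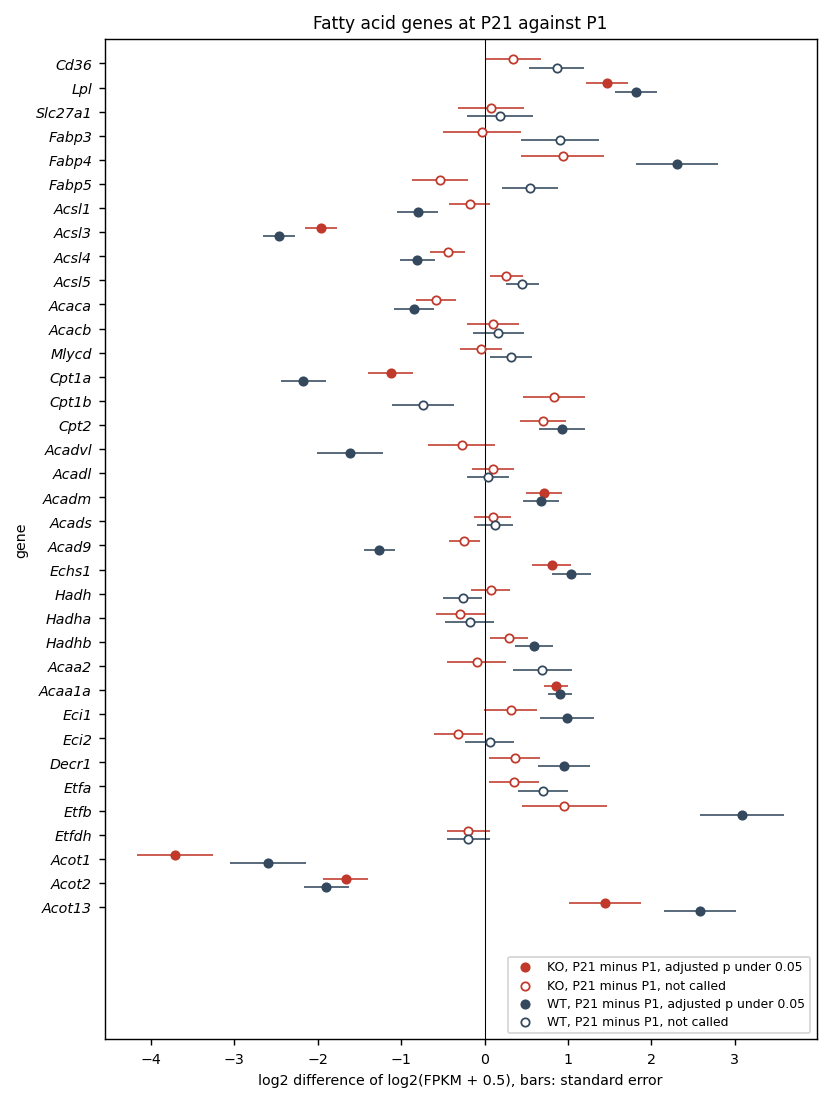
Points give the log2 difference of P21 minus P1 for the 36 members tested, KO in red and WT in dark blue, with bars of 1 standard error; filled points had an adjusted p under 0.05. The largest falls were those of Acot1 and Acsl3 and the largest WT rises those of Etfb and Acot13, and all 9 filled KO points have a filled WT point on the same side; after rescaling to TPM the WT points of Acaa1a, Acadm, Echs1, Cpt2, Hadhb, Eci1 and Decr1 lie below 0.

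Among the genes of uptake and binding, Lpl, the lipase that frees fatty acids from circulating triglyceride at the capillary wall, had 234, 216 and 218 FPKM in KO P21 libraries, against 88.3, 70.4 and 81.7 FPKM in KO P1 libraries. In WT hearts it had 398, 198 and 261 FPKM at P21, against 76.5, 75.1 and 80.5 FPKM at P1. Every P21 library was above every P1 library in both genotypes. Lpl rose by a log2 difference of 1.47 in KO (SE 0.25, adjusted p = 0.0019) and 1.82 in WT (SE 0.25, adjusted p = 0.00033). Its WT difference was 1.75 without WT P21 libraries 1 and 2 (adjusted p = 0.00092), and after rescaling to TPM it was 0.80 in KO and 0.68 in WT, with adjusted p of 0.057 and 0.075, on a scale where the median of all genes was below 0.

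The binding proteins of the Fabp family differed in level and in pattern. Fabp3 had 3712, 5395 and 2836 FPKM in KO P21 libraries, against 3860, 4004 and 3941 FPKM in KO P1 libraries. In WT hearts Fabp3 had 5563, 12613 and 3409 FPKM at P21, against 2828, 3360 and 3865 FPKM at P1. The groups overlapped in both genotypes and WT P21 library 2 was the highest of all 12. Fabp4, a binding protein of fat cells and of capillary endothelium, had 168, 254 and 145 FPKM in KO P21 libraries, against 123, 63.4 and 112 FPKM in KO P1 libraries. It had 692, 448 and 173 FPKM in WT P21 libraries, against 58.3, 61.4 and 123 FPKM in WT P1 libraries. The groups did not overlap in either genotype. The log2 difference of Fabp4 was 2.30 in WT (SE 0.49, adjusted p = 0.0034), which passed, and 0.93 in KO (SE 0.49, adjusted p = 0.19), which did not. With WT P21 library 3 alone the WT difference was 1.18 (adjusted p = 0.12). Fabp5, the epidermal-type protein, had 19.6, 30.1 and 18.4 FPKM in KO P21 libraries, against 35.0, 26.1 and 37.1 FPKM in KO P1 libraries. In WT hearts it had 43.0, 56.5 and 21.5 FPKM at P21, against 22.2, 22.2 and 33.6 FPKM at P1. Its age difference was -0.54 in KO and 0.55 in WT, neither of them called, and the groups overlapped in both genotypes.

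Cd36, the main fatty acid translocase of heart muscle and endothelium, averaged 319 ± 53.3 FPKM in KO P21 and 255 ± 67.8 FPKM in KO P1 hearts (SD, n = 3 each). In WT hearts Cd36 averaged 443 ± 196 FPKM at P21 and 231 ± 36.5 FPKM at P1. Its WT difference of 0.86 had an adjusted p of 0.051 by limma, and was called in 4 of the 23 other settings. Slc27a1, a fatty acid transport protein, averaged between 25.0 and 31.8 FPKM in the 4 groups, with differences of 0.08 in KO and 0.19 in WT that were not called.

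Several of these genes are also expressed by cells other than heart muscle. The 9 endothelial markers summed to 346 to 382 FPKM in KO P21 and 226 to 267 FPKM in KO P1 libraries, and to 397 to 872 FPKM in WT P21 and 259 to 277 FPKM in WT P1 libraries. Gpihbp1 alone had 347 FPKM in WT P21 library 1. None of the endothelial markers was at 0 throughout a group. In each genotype 4 of 9 were called higher at P21 and 5 were not called. Of all genes, 11.8% in KO and 21.5% in WT were called higher. The 8 fat cell markers summed to 2.93 to 15.8 FPKM in KO P21 and 0.0616 to 0.165 FPKM in KO P1 libraries, and to 0.584 to 7.17 FPKM in WT P21 and 0.102 to 0.129 FPKM in WT P1 libraries. Of them Adrb3 was at 0 in all 3 WT P21 libraries, Cfd, Cidec, Lep and Retn in all KO P1 libraries, and Adipoq, Cfd, Cidec and Lep in all WT P1 libraries. In WT P21 libraries 1 and 2, which had the most Fabp4, all but 1 of the 8 fat cell markers were at 0 in each library: Pnpla3 had 0.584 FPKM in library 1 and Retn 0.975 FPKM in library 2. The 8 heart muscle markers summed to 24999 to 29227 FPKM in KO P21 and 9401 to 13880 FPKM in KO P1 libraries, and to 22156 to 38166 FPKM in WT P21 and 9477 to 12516 FPKM in WT P1 libraries. They were present in every library, and 4 of 8 in KO and 5 of 8 in WT were called higher at P21, beside the same shares of all genes. The part of these cell types in the results was not tested.

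Activation to acyl-CoA is the work of the long-chain acyl-CoA synthetases, and here Acsl3 fell in both genotypes. Acsl3, a synthetase of the endoplasmic reticulum and lipid droplets, had 1.46, 1.77 and 1.76 FPKM in KO P21 libraries, against 9.80, 7.43 and 6.72 FPKM in KO P1 libraries. In WT hearts it had 1.04, 0.746 and 1.27 FPKM at P21, against 6.95, 9.08 and 7.52 FPKM at P1. The lowest P1 library had several times the highest P21 library, and no groups of different age overlapped. The log2 difference was -1.96 in KO (SE 0.19, adjusted p = 6.6e-05) and -2.47 in WT (SE 0.19, adjusted p = 1.0e-05), and it passed in all 23 other settings. In WT it was -2.23 without WT P21 libraries 1 and 2 (adjusted p = 0.00043).

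Acsl1, the most abundant synthetase of the heart, had 61.1, 49.2 and 47.4 FPKM in KO P21 libraries, against 60.3, 73.3 and 46.8 FPKM in KO P1 libraries. It had 29.7, 46.1 and 42.1 FPKM in WT P21 libraries, against 73.0, 80.9 and 52.7 FPKM in WT P1 libraries. Only the WT groups did not overlap. The WT difference of -0.80 was called (SE 0.25, adjusted p = 0.021). It was -0.68 without WT P21 libraries 1 and 2 (adjusted p = 0.14) and -0.40 with the trend on gene length removed (adjusted p = 0.19). The KO difference of -0.18 was not called (adjusted p = 0.65). Acsl4, a synthetase with a preference for arachidonic acid, had 2.69, 4.79 and 3.14 FPKM in KO P21 libraries, against 4.26, 5.38 and 4.99 FPKM in KO P1 libraries. It had 2.15, 2.72 and 3.12 FPKM in WT P21 libraries, against 5.13, 5.45 and 4.43 FPKM in WT P1 libraries. The WT groups did not overlap and the KO groups did. Acsl4 fell in WT (-0.81, SE 0.21, adjusted p = 0.0093), and its KO difference of -0.44 was not called (adjusted p = 0.14). The WT difference was -0.60 without WT P21 libraries 1 and 2 and its call was lost (adjusted p = 0.15).

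Acsl5 had 4.99, 7.08 and 6.08 FPKM in KO P21 libraries, against 4.94, 4.28 and 5.63 FPKM in KO P1 libraries. It had 5.60, 8.19 and 5.64 FPKM in WT P21 libraries, against 4.12, 4.16 and 5.41 FPKM in WT P1 libraries, and was called in neither genotype. Acsl6, best known from brain, was under 1 FPKM in every library. It had 0.446, 0.146 and 0.439 FPKM in KO P21 libraries, against 0, 0.0625 and 0.033 FPKM in KO P1 libraries. It had 0.573, 0.759 and 0.952 FPKM in WT P21 libraries, against 0.0926, 0.0117 and 0.0113 FPKM in WT P1 libraries. All 6 P21 libraries were above all 6 P1 libraries, at 0 to 126 reads per library, and the gene stayed below the level tested. With no filter on low values, Acsl6 was called in WT.

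Malonyl-CoA is made by the carboxylases and removed by the decarboxylase. Acacb, the isoform tied to mitochondria in muscle, had 27.6, 17.8 and 25.6 FPKM in KO P21 libraries, against 20.5, 28.4 and 17.5 FPKM in KO P1 libraries. It had 39.5, 24.9 and 22.5 FPKM in WT P21 libraries, against 30.9, 31.0 and 16.2 FPKM in WT P1 libraries, and the groups overlapped in both genotypes. Acaca, the isoform of fatty acid synthesis, had 0.693, 0.515 and 0.609 FPKM in KO P21 libraries, against 0.96, 1.55 and 1.01 FPKM in KO P1 libraries. It had 0.423, 0.511 and 0.605 FPKM in WT P21 libraries, against 1.64, 1.44 and 0.943 FPKM in WT P1 libraries. Acaca was below Acacb by more than an order of magnitude in each library, and its P21 libraries lay below its P1 libraries in both genotypes. It fell in WT (-0.84, SE 0.24, adjusted p = 0.014), and its KO difference of -0.58 was not called (adjusted p = 0.096). The WT difference was -0.71 without WT P21 libraries 1 and 2 (adjusted p = 0.14) and -0.40 with the trend on gene length removed (adjusted p = 0.17). Acaca was tested because 4 P1 libraries reached 1 FPKM, which no P21 library did, so its WT difference is a description. Mlycd, the decarboxylase, had 41.1, 44.7 and 37.5 FPKM in KO P21 libraries, against 47.9, 42.2 and 37.2 FPKM in KO P1 libraries. It had 54.2, 73.3 and 34.2 FPKM in WT P21 libraries, against 36.6, 42.6 and 44.8 FPKM in WT P1 libraries, and was called in neither genotype.

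In the carnitine shuttle, Cpt1a, the liver-type carnitine palmitoyltransferase of the outer mitochondrial membrane that the fetal heart also expresses, fell in both genotypes. It had 6.91, 5.34 and 7.99 FPKM in KO P21 libraries, against 15.4, 17.7 and 12.6 FPKM in KO P1 libraries. In WT hearts it had 4.83, 2.37 and 4.37 FPKM at P21, against 19.8, 22.8 and 13.9 FPKM at P1. No groups of different age overlapped. The log2 difference was -1.13 in KO (SE 0.27, adjusted p = 0.010) and -2.17 in WT (SE 0.27, adjusted p = 0.00016), and it passed in all 23 other settings. Its WT difference was -1.96 without WT P21 libraries 1 and 2 (adjusted p = 0.0028). The difference between these age effects had an unadjusted p of 0.017 and an adjusted p of 0.69.

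Cpt1b, the muscle-type isoform, had 3.56, 2.57 and 2.10 FPKM in KO P21 libraries, against 1.58, 1.43 and 0.93 FPKM in KO P1 libraries. It had 1.03, 0.152 and 1.42 FPKM in WT P21 libraries, against 2.27, 1.43 and 1.16 FPKM in WT P1 libraries. The KO groups did not overlap and the WT groups did. The age difference was 0.83 in KO (SE 0.38, adjusted p = 0.13) and -0.74 in WT (SE 0.38, adjusted p = 0.13), so neither was called. These low levels are uncertain. In the table's coordinates, for which no build is stated, Cpt1b covers chromosome 15 from 89300608 to 89310066 on the minus strand, and a gene on the same strand, Gm44502, covers 89300608 to 89313899 and so all of Cpt1b. Gm44502 had 0 reads in every library and Cpt1b had 3 to 142. No source used here says how reads that fall in both genes were assigned. The ratio of Cpt1b to Cpt1a is not printed for this reason.

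Cpt2, the carnitine palmitoyltransferase of the inner membrane, had 91.9, 97.6 and 77.8 FPKM in KO P21 libraries, against 48.7, 71.4 and 46.2 FPKM in KO P1 libraries. It had 102, 172 and 83.4 FPKM in WT P21 libraries, against 61.2, 64.7 and 52.8 FPKM in WT P1 libraries. The ages did not overlap in either genotype. Cpt2 rose in WT (0.93, SE 0.28, adjusted p = 0.018), with the sign reversed to -0.21 after rescaling to TPM, and its KO difference of 0.70 was not called (adjusted p = 0.085). In WT it was 0.49 without WT P21 libraries 1 and 2 and its call was lost (adjusted p = 0.23).

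**Figure D3:**
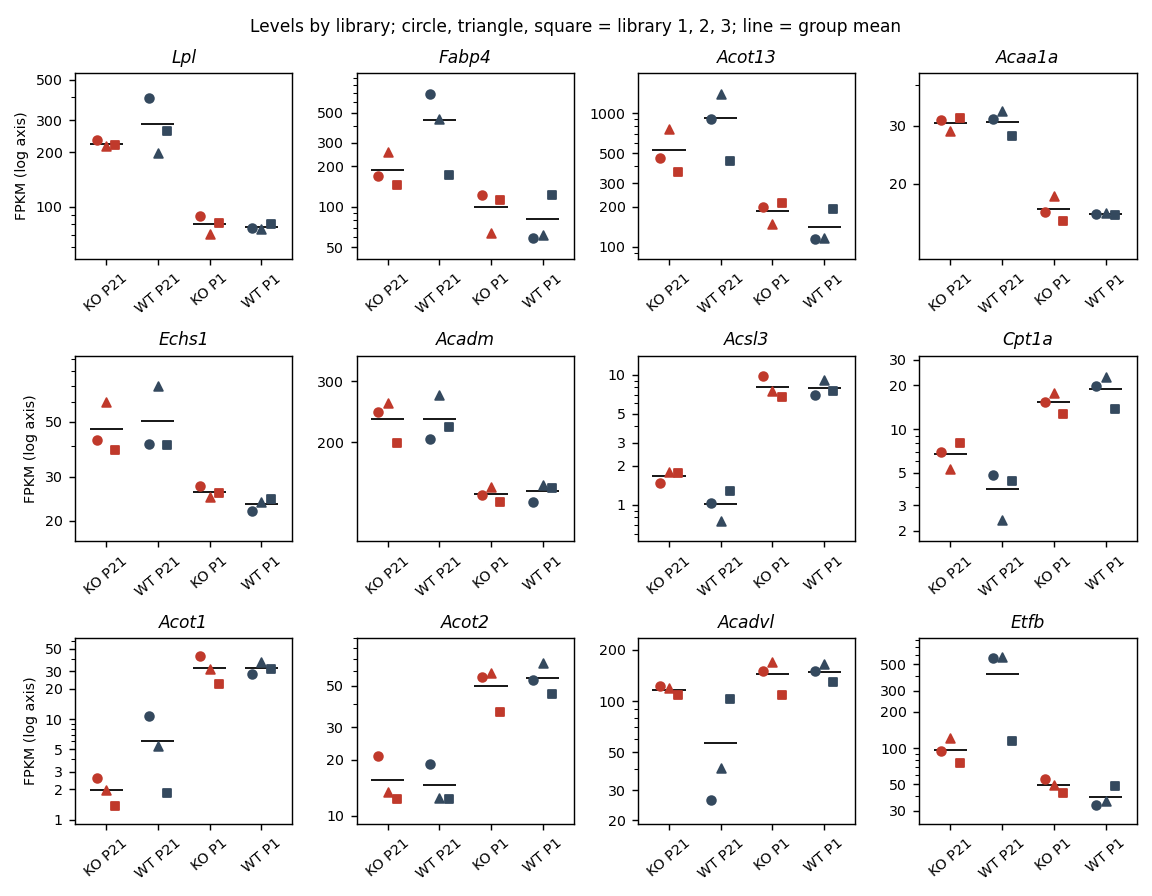
Each panel shows the FPKM of 1 gene in the 12 libraries on a log axis, with KO in red and WT in dark blue, libraries 1, 2 and 3 as circle, triangle and square, and group means as lines. Lpl, Acaa1a, Echs1 and Acadm are higher in P21 than in P1 libraries and Acsl3, Cpt1a, Acot1 and Acot2 lower in both genotypes, while the WT P21 means of Fabp4, Acadvl and Etfb are set by libraries 1 and 2; the rises of Acaa1a, Echs1 and Acadm in WT reverse after rescaling to TPM.

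Chain shortening is carried out by enzymes that differ in the chain length they accept, and their age differences did not share a direction. Acadm, the medium-chain acyl-CoA dehydrogenase, had 245, 259.6 and 199 FPKM in KO P21 libraries, against 141, 149 and 135 FPKM in KO P1 libraries. The WT values were 205, 274 and 222 FPKM at P21, against 135, 151 and 148 FPKM at P1. No groups of different age overlapped. Acadm rose by 0.71 in KO (SE 0.21, adjusted p = 0.030) and 0.68 in WT (SE 0.21, adjusted p = 0.023), with a reversed sign of -0.46 in WT after rescaling to TPM (adjusted p = 0.049). Relative to the median of all genes the TPM difference was 0.65 in KO and 0.55 in WT, values that rescaling can hardly move. The WT difference was 0.62 without WT P21 libraries 1 and 2 and its call was lost (adjusted p = 0.089).

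Acaa1a, a thiolase of peroxisomes, had 31.2, 29.0 and 31.7 FPKM in KO P21 libraries, against 16.4, 18.4 and 15.4 FPKM in KO P1 libraries. The WT values were 31.4, 33.3 and 27.9 FPKM at P21, against 16.1, 16.3 and 16.1 FPKM at P1. The libraries of each group lay close together and the ages did not overlap. Acaa1a rose by 0.86 in KO (SE 0.14, adjusted p = 0.0015) and 0.91 in WT (SE 0.14, adjusted p = 0.00062). After rescaling to TPM the WT difference of Acaa1a was -0.21. Relative to the median of all genes on that scale it was 0.80, a value that rescaling can hardly move. Its WT difference was 0.77 without WT P21 libraries 1 and 2 (adjusted p = 0.012).

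Echs1, the short-chain enoyl-CoA hydratase, had 42.1, 60.0 and 38.6 FPKM in KO P21 libraries, against 27.7, 24.9 and 25.8 FPKM in KO P1 libraries. The WT values were 40.7, 69.7 and 40.4 FPKM at P21, against 21.9, 23.8 and 24.5 FPKM at P1. The ages did not overlap, and library 2 was the highest of both P21 groups. Echs1 rose by 0.81 in KO (SE 0.23, adjusted p = 0.027) and 1.04 in WT (SE 0.23, adjusted p = 0.0045), with a sign of -0.09 in WT after rescaling to TPM. In WT it was 0.78 without WT P21 libraries 1 and 2 (adjusted p = 0.045). In KO hearts the calls of Echs1, Acadm and Acot13 were lost when any 1 of 5 KO libraries was left out, namely the 3 at P1 and libraries 1 and 2 at P21, and that of Acadm also without WT P1 library 1 or 2. In WT hearts the calls of Acaca, Acadm, Acsl1, Cpt2, Decr1, Eci1 and Hadhb were lost when at least 1 library was left out.

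Acadvl, the very long-chain acyl-CoA dehydrogenase, had 122, 119 and 109 FPKM in KO P21 libraries, against 150.4, 170.4 and 109 FPKM in KO P1 libraries. It had 26.1, 40.3 and 103 FPKM in WT P21 libraries, against 150.0, 164 and 129.8 FPKM in WT P1 libraries. WT P21 libraries 1 and 2 were far below the other 10, and library 3 of that group lay near the KO P21 libraries. The WT difference of -1.61 was called (SE 0.40, adjusted p = 0.0076). It was -0.51 without WT P21 libraries 1 and 2 (adjusted p = 0.22). Acad9, a dehydrogenase of the same family that also serves in the assembly of respiratory complex I, had 4.72, 5.20 and 4.96 FPKM in KO P21 libraries, against 5.45, 6.90 and 5.59 FPKM in KO P1 libraries. It had 1.84, 2.30 and 3.16 FPKM in WT P21 libraries, against 6.80, 6.97 and 5.60 FPKM in WT P1 libraries. All 3 WT P21 libraries were below all other libraries. Acad9 fell in WT (-1.26, SE 0.19, adjusted p = 0.00043), also without WT P21 libraries 1 and 2 (-0.92, adjusted p = 0.011). Its KO difference of -0.24 was not called (adjusted p = 0.37).

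Several other genes of chain shortening were abundant. Acadl, the long-chain acyl-CoA dehydrogenase, averaged between 477 and 522 FPKM in all 4 groups, and Acads, the short-chain enzyme, between 76.5 and 90.7 FPKM. Hadh, the short-chain hydroxyacyl-CoA dehydrogenase, averaged between 51.3 and 60.7 FPKM. None of these was called for age in either genotype. Acaa2, the mitochondrial thiolase, had 630.2, 749 and 545 FPKM in KO P21 libraries, against 782, 773 and 516 FPKM in KO P1 libraries. It had 1266, 1649 and 672 FPKM in WT P21 libraries, against 664, 724 and 689.9 FPKM in WT P1 libraries, and the WT difference of 0.69 was not called (SE 0.35, adjusted p = 0.13). Without WT P21 libraries 1 and 2, the highest 2 of all 12, that difference was -0.04 (adjusted p = 0.94).

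Hadha and Hadhb encode the alpha and beta subunits of the mitochondrial trifunctional protein. Hadha averaged 113 ± 7.03 FPKM in KO P21 and 143 ± 44.8 FPKM in KO P1 hearts, and 146 ± 34.7 FPKM in WT P21 and 165 ± 35.8 FPKM in WT P1 hearts (SD, n = 3 each), and was not called. Hadhb averaged 132 ± 16.9 FPKM in KO P21 and 108 ± 17.2 FPKM in KO P1 hearts, and 163 ± 30.0 FPKM in WT P21 and 107 ± 9.41 FPKM in WT P1 hearts. The WT difference of Hadhb, 0.59, was called at an adjusted p of 0.0498 by limma and had that call in 5 of the 23 other settings, with its sign reversed after rescaling to TPM (-0.55) and by reads in genes (-0.05). Without WT P21 libraries 1 and 2 it was 0.27 (adjusted p = 0.48).

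Of the enzymes for double bonds of unsaturated chains, Eci1 and Decr1 had their highest values in WT P21 libraries 1 and 2. Eci1, a delta3-delta2-enoyl-CoA isomerase, had 170.1, 210.4 and 129 FPKM in KO P21 libraries, against 149, 123 and 130.0 FPKM in KO P1 libraries. It had 257, 336 and 160.3 FPKM in WT P21 libraries, against 95.9, 109.6 and 168 FPKM in WT P1 libraries. Decr1, the 2,4-dienoyl-CoA reductase, had 81.5, 119 and 72.8 FPKM in KO P21 libraries, against 68.7, 67.5 and 71.9 FPKM in KO P1 libraries. Its values were 156, 177 and 77.2 FPKM in WT P21 libraries, against 55.3, 66.4 and 78.5 FPKM in WT P1 libraries. In WT hearts library 3 of P21 lay within the P1 range for both genes. Eci1 (0.99, SE 0.32, adjusted p = 0.026) and Decr1 (0.96, SE 0.31, adjusted p = 0.026) were called higher in WT, with the sign reversed after rescaling to TPM (-0.15 and -0.18), and neither was called without WT P21 libraries 1 and 2 (0.41, adjusted p = 0.44, for Eci1 and 0.22, adjusted p = 0.62, for Decr1). In KO hearts the differences were 0.31 and 0.36 and not called. Eci2, a related isomerase of peroxisomes and mitochondria, averaged between 25.8 and 33.5 FPKM in the 4 groups and was not called.

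Electron transfer flavoprotein takes electrons from the acyl-CoA dehydrogenases. Etfb, its beta subunit, had the largest rise of the set in WT hearts with all 12 libraries. Without WT P21 libraries 1 and 2 the WT rises of Lpl (1.75) and Acot13 (1.68) were larger than that of Etfb (1.55). Etfb had 94.4, 122 and 74.5 FPKM in KO P21 libraries, against 55.7, 49.7 and 42.1 FPKM in KO P1 libraries. It had 567, 571 and 114 FPKM in WT P21 libraries, against 33.8, 36.1 and 48.0 FPKM in WT P1 libraries. The ages did not overlap in either genotype, and WT P21 libraries 1 and 2 held more than 4 times the level of any other library. Etfb rose in WT by 3.09 (SE 0.51, adjusted p = 0.00085) and by 1.55 without those libraries (adjusted p = 0.0080). Its KO difference of 0.95 was not called with all 12 libraries (SE 0.51, adjusted p = 0.19) and was called without WT P21 libraries 1 and 2 (adjusted p = 0.0077), where the estimate of the spread was smaller. A gene on the same strand, Etfbl, covers most of Etfb in the table's coordinates and had 0 to 2 reads per library. As for Cpt1b, no source used here says how reads in both genes were assigned, so the level of Etfb is uncertain.

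Etfa, the alpha subunit, had smaller age differences than Etfb, with the same signs. It had 269.6, 390.3 and 230.4 FPKM in KO P21 libraries, against 235, 219 and 225 FPKM in KO P1 libraries. It had 276, 505 and 271 FPKM in WT P21 libraries, against 185, 200.2 and 239.5 FPKM in WT P1 libraries. The groups did not overlap in WT, and in KO 1 of the 3 P21 libraries lay inside the P1 range. The WT difference of 0.70 was not called (SE 0.30, adjusted p = 0.078). Etfdh, which passes the electrons to ubiquinone, averaged between 49.7 and 57.8 FPKM in the 4 groups and was not called.

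Acyl-CoA thioesterases, which free fatty acids again from coenzyme A, included the largest fall of the set in either genotype. Acot1, the cytosolic enzyme, had 2.58, 1.97 and 1.36 FPKM in KO P21 libraries, against 42.8, 31.4 and 22.5 FPKM in KO P1 libraries. The WT values were 10.8, 5.46 and 1.83 FPKM at P21, against 28.3, 36.8 and 31.6 FPKM at P1. Every P21 library was below every P1 library, and WT P21 libraries 1 and 2 were above the other 4 P21 libraries. Acot1 fell in both genotypes, with a log2 difference of -3.71 in KO (SE 0.46, adjusted p = 0.00025) and -2.595 in WT (SE 0.46, adjusted p = 0.0012). The WT difference was -3.80 without WT P21 libraries 1 and 2 (adjusted p = 0.00024).

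Acot2, the mitochondrial enzyme, had 20.8, 13.4 and 12.3 FPKM in KO P21 libraries, against 55.6, 58.3 and 36.1 FPKM in KO P1 libraries. The WT values were 19.0, 12.5 and 12.3 FPKM at P21, against 53.8, 66.4 and 45.5 FPKM at P1. The ages did not overlap. Acot2 fell too, with a log2 difference of -1.66 in KO (SE 0.27, adjusted p = 0.0014) and -1.90 in WT (SE 0.27, adjusted p = 0.00038). The WT difference was -2.10 without WT P21 libraries 1 and 2 (adjusted p = 0.0040). Acot1 and Acot2 are neighbouring genes on chromosome 12 that share part of their sequence. In all, 527 windows of 50 bases occur in the transcripts of both (23.9% of those of Acot1 and 24.6% of those of Acot2). The split of reads between them is therefore uncertain. As deposited, the ratio of Acot2 to Acot1 was 8.07, 6.80 and 9.09 in KO P21 libraries and 1.30, 1.86 and 1.60 in KO P1 libraries. The ratio was 1.76, 2.28 and 6.73 in WT P21 libraries and 1.90, 1.81 and 1.44 in WT P1 libraries. WT P21 library 3 had a ratio near that of KO P21, and libraries 1 and 2 of that group had ratios near those of P1. No other pair of related members that was compared shared a window of that length.

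**Figure D4:**
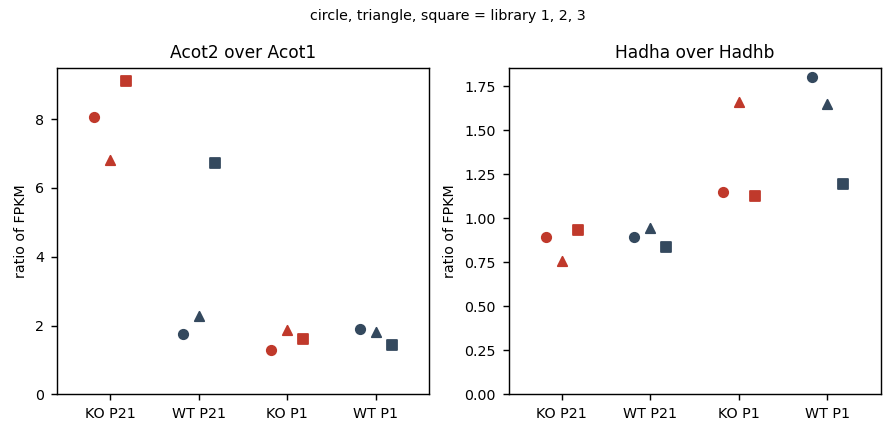
Ratios of FPKM per library for Acot2 over Acot1 (left) and Hadha over Hadhb (right), with KO in red, WT in dark blue, and libraries 1, 2 and 3 as circle, triangle and square. Acot2 over Acot1 is at least 6.73 in 4 of 6 P21 libraries and at most 2.28 in WT P21 libraries 1 and 2; Hadha over Hadhb is below 1 in all 6 P21 libraries and above 1 in all 6 P1 libraries.

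Acot13, a small thioesterase found at mitochondria, had 463, 762 and 361 FPKM in KO P21 libraries, against 199, 147 and 214 FPKM in KO P1 libraries. The WT values were 902, 1408 and 438 FPKM at P21, against 115, 116 and 191 FPKM at P1. The ages did not overlap, and Acot13 was more abundant than Acot1 or Acot2 in every library. It rose by 1.45 in KO (SE 0.43, adjusted p = 0.031) and 2.59 in WT (SE 0.43, adjusted p = 0.00094), and remained higher in both genotypes after rescaling to TPM (0.78 and 1.44). Its WT difference was 1.68 without WT P21 libraries 1 and 2 (adjusted p = 0.025). Acot13 is the shortest member by gene length, 744 bases. Set against the mean of KO P21 libraries 1, 2 and 3 and WT P21 library 3, genes under 1 kb were on median 0.24 higher on the log2 scale in KO P21 library 2, and 0.13 and 0.29 higher in WT P21 libraries 1 and 2. Genes of 1 to 2 kb were 0.27 higher in KO P21 library 2, and 0.21 and 0.53 higher in WT P21 libraries 1 and 2. Genes of at least 5 kb had values of -0.11 in KO P21 library 2, and -0.08 and -0.21 in WT P21 libraries 1 and 2. With the trend on gene length removed, Acot13 differed by 1.21 in KO (adjusted p = 0.010) and 1.99 in WT (adjusted p = 0.0004).

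The second question is whether the KO differs from WT at each age. At P1, 0 of 36 members were called by limma, as were 0 of 13537 genes (0%), and no member had an unadjusted p under 0.05, where 0.606% of all genes had one. Voom on the recovered reads also called 0 members. The median log2 difference of the members was 0.01, with a range of -0.28 to 0.43. The libraries did not overlap for 1 member, Echs1, which had 27.7, 24.9 and 25.8 FPKM in KO P1 libraries, against 21.9, 23.8 and 24.5 FPKM in WT P1 libraries (background 4.52% higher and 3.44% lower). Its difference of 0.16 was not called.

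At P21, 0 of 36 members were called by limma, where 9 genes of all 13537 were (0.0665%, with 0.0591% higher and 0.00739% lower), and voom called 0 members. An unadjusted p under 0.05 was found for 9 members, where 13.8% of all genes had one. The smallest adjusted p was that of Acad9, with a log2 difference of 0.92 (SE 0.19, adjusted p = 0.12). The libraries did not overlap for 6 members that were higher in KO, namely Acsl1, Acsl3, Cpt1a, Cpt1b, Acad9 and Acadvl, and for 0 that were lower (background 6.90% and 5.05%). These 6 are the genes whose values at each age are given above, and 5 of them were lower at P21 than at P1 in WT hearts at a level that was called, Cpt1b being the exception. The comparisons share the WT P21 libraries, so the values are set side by side and not counted as separate evidence.

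The largest differences of the 36 between KO and WT at P21 depended on WT P21 libraries 1 and 2. Etfb differed by -1.80 (SE 0.51, adjusted p = 0.20) with all libraries and by -0.26 against WT library 3 alone. Cpt1b differed by 1.36 (SE 0.38, adjusted p = 0.19) and by 0.73 against that library. Acadvl differed by 1.28 (SE 0.40, adjusted p = 0.24) and by 0.17, Acot1 by -1.16 (SE 0.46, adjusted p = 0.31) and by 0.05, and Fabp4 by -1.04 (SE 0.49, adjusted p = 0.38) and by 0.08. Acad9 kept its sign, at 0.57 against library 3, as did Cpt1a, at 0.77 with all libraries and 0.56 against library 3, and Acsl3, at 0.52 and 0.28. None of these was called in either fit.

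The median of the members was -0.20 with all libraries, against 0.00 over all genes, with 13 members positive and 23 negative. Without WT P21 libraries 1 and 2 the median was 0.13, against 0.01 over all genes, and 30 of 36 members were positive. When WT P21 library 3 was left out instead, 9 members were called: Acad9, Acadvl and Cpt1b were higher in KO, and Acaa2, Acot1, Decr1, Etfb, Fabp4 and Fabp5 were lower. The share of all genes called in that fit is not given here, so these calls are not a result about the fatty acid genes in particular. The sign of the median and the number of calls thus depended on which WT P21 libraries were used. Within the WT P21 group the median SD of the members was 0.51 on the log2 scale, against 0.43 for all genes, while the other groups had medians of 0.19 to 0.27 for the members.

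**Figure D5:**
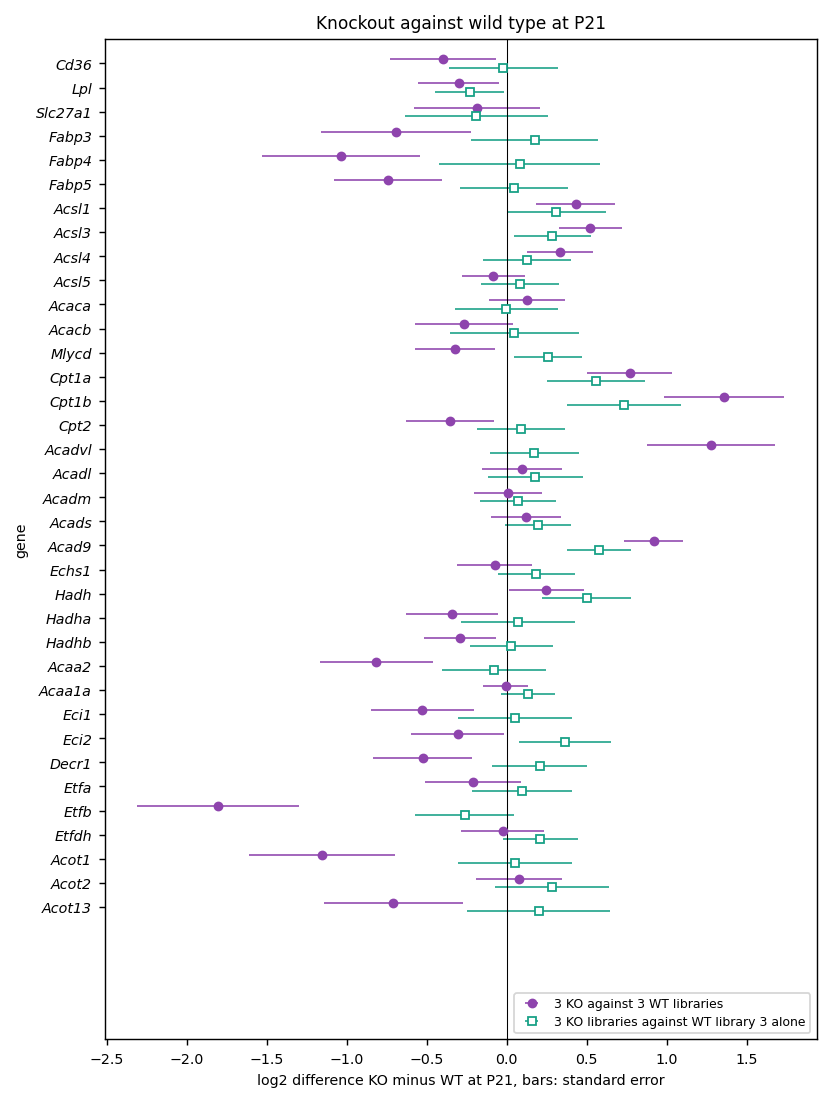
Log2 differences of KO minus WT at P21 for the 36 members tested, with bars of 1 standard error: filled purple circles use 3 KO and 3 WT libraries and open green squares use 3 KO libraries and WT library 3 alone. Etfb, Acot1, Fabp4 and Acadvl lie far from 0 as circles and within 0.3 of it as squares, and no difference had an adjusted p under 0.05 in either fit.

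The last question is whether the KO effect differs between P21 and P1. For 0 of 36 members, and 0 of 13537 genes (0%), was the difference of the KO effects called by limma, and voom called 0 members. An unadjusted p under 0.05 was found for 6 members, where 6.94% of all genes had one: Acad9 (1.02), Cpt1a (1.05), Cpt1b (1.57) and Acadvl (1.34) had a more positive KO effect at P21 than at P1, and Etfb (-2.13) and Fabp5 (-1.08) a more negative one. Their adjusted p was 0.69 each. Without WT P21 library 3, Acad9, Acadvl and Etfb were called, and the share of all genes called in that fit is not given here.

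Other genes of fatty acid metabolism were also called in both directions, and their counts stand beside the 25.0% of all genes called in KO and 44.9% in WT hearts. Of 18 further genes of mitochondrial oxidation and carnitine supply, 7 rose and 0 fell in KO hearts and 9 rose and 2 fell in WT hearts. Examples are Acss1, the mitochondrial acetyl-CoA synthetase, with 2.95 in KO (SE 0.26, adjusted p = 2.4e-05) and 2.91 in WT (SE 0.26, adjusted p = 2.3e-05), and Acad11, with 1.56 in KO and 1.51 in WT. Ech1, a dienoyl-CoA isomerase, had 1.77 in KO and 3.49 in WT. Its levels were 1622, 1560 and 513 FPKM in WT P21 libraries and 564, 808 and 457 FPKM in KO P21 libraries, with WT library 3 inside the KO range. Of 14 peroxisomal genes, 3 rose and 0 fell in KO hearts and 4 rose and 3 fell in WT hearts, and Phyh, which starts the breakdown of phytanic acid, had 1.39 in KO and 1.32 in WT. Of 9 genes of uptake and of carriers, 2 rose and 1 fell in KO hearts and 2 rose and 2 fell in WT hearts. Gpihbp1, the endothelial anchor of Lpl, rose by 1.58 in KO (adjusted p = 0.040) and 2.89 in WT (adjusted p = 0.0012), as Lpl did. Gpihbp1 had 347, 120 and 54.5 FPKM in WT P21 libraries and 50.9, 71.7 and 55.3 FPKM in KO P21 libraries. Here too WT P21 library 3 lay inside the KO P21 range. Angptl4, an inhibitor of Lpl, fell in WT (-2.94, adjusted p = 0.00091), and its KO difference of -1.11 was not called (adjusted p = 0.12). Of 11 genes of fatty acid synthesis, 3 rose and 4 fell in KO hearts and 4 rose and 4 fell in WT hearts, with Scd1, a stearoyl-CoA desaturase, at 1.71 in KO and 1.51 in WT and its relative Scd2 at -2.60 in KO and -2.43 in WT. No gene of these lists was called between KO and WT at either age.

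The nuclear genes of oxidative phosphorylation had larger age differences, on median, than the fatty acid genes. Their median difference was 1.13 in KO and 2.08 in WT, against 0.09 and 0.25 for the fatty acid genes and -0.02 and -0.04 over all genes. Of 42 tested, 16 were called higher in KO and 37 in WT, and 0 lower. Of all genes, 11.8% in KO and 21.5% in WT were called higher, and 13.2% and 23.3% lower. By library, the median of the fatty acid genes relative to each gene's mean was 0.06, 0.22 and -0.17 in KO P21 libraries and 0.20, 0.52 and -0.10 in WT P21 libraries. That of the oxidative phosphorylation genes was 0.35, 0.97 and 0.09 in KO P21 libraries and 1.01, 1.97 and 0.28 in WT P21 libraries. WT P21 library 3 lay inside the KO P21 range, so the WT median of 2.08 leaned on libraries 1 and 2. Both lists had their highest library at WT P21 library 2 and their lowest of the P21 groups at library 3 of KO.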

How the data were processed

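RNA of mouse heart was sequenced in 12 libraries, 3 in each of 4 groups taken from the sample titles. The authors deposited 1 table of FPKM values per gene. The submitters' processing notes list TopHat2 2.0.13 beside Subread with featureCounts, FastQC and edgeR, and name the builds GRCh38, mm10 and GRCm39 with no role for any. The authors thus gave levels per gene length and depth, not counts. The build of the coordinates and the use of strand in counting are not given in the sources used here. Of the members, 19 overlap another gene, 9 of them on the same strand. Reads recovered from the FPKM steps were whole within 0.05 of a read for 100% of nonzero values. The authors' scaling factors were 0.605 to 1.17 per library, with the lowest values in WT P21 libraries 2 (0.605) and 1 (0.761).

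Genes with at least 1 FPKM in at least 3 libraries were fitted with limma 3.58.1 in R 4.3.3, on log2(FPKM + 0.5), with 1 mean per group over all 12 libraries, a trend on level and robust moderation. There were 5 contrasts. The fit was checked on simulated data. Figures used matplotlib 3.10.9.

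The members and the other lists were chosen with earlier results of these data known. Of the genes put on those lists, 2 had no row of that name. Values per library are given, in each role, for the 2 members with the smallest p for age in WT, the member with the smallest p between KO and WT at P21, and the isoform sets. Other members were named after their values were seen. No column of sample values was left unused (0).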

Additional observations from a re-analysis of the deposited data

How the results depend on the processing

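Some medians of the members moved by more than the spread between libraries. The KO against WT median at P21, -0.20, was 0.17 after rescaling to TPM and 0.13 without WT P21 libraries 1 and 2. With TPM the median of all genes was 0.30 in this comparison. Below it lay 22 of 36 members, against 23 with the authors' scaling, a count that such a rescaling can hardly change. For P21 against P1 the KO median of 0.09 was -0.57 with TPM and -0.33 by reads in genes, and the WT median of 0.25 was -0.88, -0.39 and, without those libraries, -0.040. The median of the difference of KO effects, -0.15, was 0.30 with TPM, 0.060 by reads in genes and 0.11 without those libraries. Calls for age numbered 18 with TPM in KO, against 9, where 635 of all genes were called higher and 5112 lower. In WT, several of the 20 calls for age were lost without WT P21 libraries 1 and 2, as given above for each gene. Leaving out single libraries gave 0 to 9 calls for KO against WT at P21 and 0 to 3 for the difference of KO effects, in both cases with the highest number without WT P21 library 3, 6 to 11 for age in KO and 14 to 27 for age in WT. The shares of all genes called in these fits are not given here.

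Without WT P21 libraries 1 and 2, 19 of 36 members changed sign between KO and WT at P21, Fabp3, Fabp4, Acot13, Eci1 and Hadha among them, and 6 of 36 for age in WT. Of the members with the smallest p of their role between KO and WT at P21, Mlycd changed sign with TPM (0.049). Without WT P21 libraries 1 and 2, Mlycd (0.26), Fabp5 (0.043), Decr1 (0.21) and Acot1 (0.050) of these changed sign. Of the members called for age in WT, TPM gave Acadm -0.46, Eci1 -0.15, Hadhb -0.55, Decr1 -0.18, Cpt2 -0.21, Echs1 -0.088 and Acaa1a -0.21. Reads in genes gave Hadhb -0.050. The cause was not tested, beyond the shift of all genes given above. Whether sample numbers pair the libraries is not known. Of 18 same-number correlations of deviations from group means, 6 exceeded 0.1 (-0.30 to 0.49). Between KO P21 and WT P21 they were 0.03, 0.49 and 0.35 for numbers 1, 2 and 3. With the number as a replicate block, 10 members were called for age in KO, 20 for age in WT and 0 in the other comparisons. Removing the trend on gene length, an alternative chosen after seeing the data, gave 9 and 20 calls for age, the same 9 in KO and 18 of the same 20 in WT, where Acaca and Acsl1 were lost and Acsl5 and Cd36 gained. Depth limits the low genes most: Cpt1b had 3 reads and Acsl3 19 in their lowest library. A quasi-likelihood count model on the recovered reads was not run, since the deposited unit is FPKM, and a fit of the compared groups alone has no separate form for the difference of KO effects.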

Other observations

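Hadha and Hadhb, which lie side by side and encode the subunits of 1 enzyme complex, had a ratio that separated the ages. This ratio was looked at after its values had been seen, and it has no test. Hadha over Hadhb was 0.896, 0.759 and 0.933 in KO P21 libraries and 1.15, 1.66 and 1.13 in KO P1 libraries. It was 0.895, 0.944 and 0.835 in WT P21 libraries and 1.80, 1.65 and 1.20 in WT P1 libraries. All 6 P21 libraries, WT P21 libraries 1 and 2 among them, were below all 6 P1 libraries. Such a separation was not particular to this pair. The ratios of Acacb to Acaca, Acsl1 to Acsl3, Fabp3 to Fabp4 and Fabp4 to Fabp5 also separated all P21 from all P1 libraries. Of the ratios formed, only that of Acot2 to Acot1 did not.

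Among macrophage markers 6 of 7 tested in KO and 5 of 7 in WT were called higher at P21, as were 5 of 6 red cell markers in each genotype. Of all genes, 11.8% in KO and 21.5% in WT were called higher. The 8 macrophage markers summed to 189 to 360 FPKM in KO P21 and 45.0 to 57.3 FPKM in KO P1 libraries, and to 189 to 490.2 FPKM in WT P21 and 39.1 to 71.2 FPKM in WT P1 libraries. The 7 red cell markers summed to 7088 to 15000.3 FPKM in KO P21 and 1893 to 4424 FPKM in KO P1 libraries, and to 10069 to 42942 FPKM in WT P21 and 1663 to 3269 FPKM in WT P1 libraries. The summed fibroblast markers overlapped between the ages in KO and were lower at P21 without overlap in WT. The summed brown fat markers overlapped in both genotypes. Of 8 fibroblast markers, 2 were called higher and 0 lower in KO, and 1 higher and 3 lower in WT. Of all genes, 13.2% in KO and 23.3% in WT were called lower. Of 2 brown fat markers tested, 0 were called in KO and 1 was called higher in WT. The 8 fibroblast markers summed to 517 to 717 FPKM in KO P21 and 351 to 667 FPKM in KO P1 libraries, and to 279 to 472 FPKM in WT P21 and 512 to 725 FPKM in WT P1 libraries. The 5 brown fat markers summed to 36.5 to 57.5 FPKM in KO P21 and 31.8 to 43.0 FPKM in KO P1 libraries, and to 33.9 to 69.7 FPKM in WT P21 and 32.5 to 36.3 FPKM in WT P1 libraries. Of these Ucp1, the uncoupling protein of brown fat, was at 0 in all 3 WT P21 and all 3 KO P1 libraries, and Elovl3 in all 6 P1 libraries. Their part in the results was not tested.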
